A study of Homo sapiens with 4 samples.

Results

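OVOL1, GRHL3, KLF4 and ESRP2 are 4 regulators of epithelial identity that were followed by name through the expression tables of FOSL1 depletion in SCC1 and FaDu cells, 2 lines of human squamous carcinoma of the head and neck, the latter derived from the hypopharynx. The groups were SCC1 with control siRNA, SCC1 with FOSL1 siRNA, FaDu with control siRNA and FaDu with FOSL1 siRNA, each 1 library of total RNA from cells grown in DMEM with serum and treated for 48 h. In the SCC1 table the control column carries a trailing 2 that no label accounts for, and every SCC1 ratio rests on that column. FRA1, the product of FOSL1, is one of the subunits from which AP-1 transcription factors are assembled. The authors deposited 1 table per line, holding the genes that passed their own comparison at p under 0.05, and a gene in a table is called listed here. All 4 members were listed in FaDu, among 1545 genes, and 3 of the 4 were listed in SCC1, among 1903 genes; KLF4 has no value in SCC1 and is not called unchanged there.

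The members act at different steps of the epithelial programme. OVOL1 is a zinc finger transcription factor that represses genes of epithelial-mesenchymal transition and restrains the growth of skin progenitors as they differentiate. GRHL3 is a Grainyhead-like transcription factor that drives barrier formation and wound closure in surface epithelia, and KLF4 is a Krüppel-like zinc finger factor of the suprabasal layers of stratified epithelium. ESRP2 is an RNA-binding protein that, with its paralog ESRP1, keeps epithelial exons in transcripts such as those of FGFR2 and CD44. Loss of such factors accompanies epithelial-mesenchymal transition, in which carcinoma cells gain motility.

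Levels are given in CPM, reads scaled to the effective library size, which ran from 10365774 to 13242163 reads over the 4 libraries. Reads per gene were recovered from the CPM steps. A ratio is followed in parentheses by its 95% interval, exact binomial for a pair of libraries and exact conditional for a ratio of ratios. These intervals hold counting error alone and treat reads as independent molecules, which PCR copies are not. Since every group is 1 library, no difference could be checked against replicates and the condition itself was not tested. In bulk RNA, fewer cells that express a gene and less of its RNA per cell cannot be told apart. The siRNA target moved as labelled, FOSL1 going from 1756 to 45 reads in SCC1 and from 8881 to 383 reads in FaDu. Of 8 squamous markers, CDH1 was the listed gene in SCC1, from 101 to 192 CPM, the 756th largest of 773 listed rises. In FaDu it was KRT17, from 794 to 2609 CPM, where near-identical pseudogenes make it uncertain. The listed share was thus 12.5% in each line, near the 13.8% in SCC1 and 11.2% in FaDu of all tested genes. The other 7 in each line are not listed, so their levels could not be checked.

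The transcription factors were higher and the splicing factor was lower after FOSL1 siRNA. OVOL1 and GRHL3 were higher in both lines, KLF4 was higher in FaDu, and ESRP2 was lower in both lines. This makes 2 members higher and 1 lower in SCC1, and 3 higher and 1 lower in FaDu. Of the 13796 genes in the authors' test of each line, 5.6% were listed as higher and 8.19% as lower in SCC1, and 4.76% and 6.44% in FaDu. In the authors' deposited table an FDR under 0.05 was given to 1 of the higher members in each line and to 0 of the lower ones. That FDR was met by 1.57% of tested genes as higher and 2.21% as lower in SCC1, and by 1.25% and 1.6% in FaDu. The authors' p-values were matched by edgeR with the dispersion fixed at 0.05, for all listed genes of both lines. With 1 library per group, no dispersion could be estimated from replicates. Each p-value and FDR of the authors cited here thus compares single libraries, depends on such a fixed value and does not test the condition. With the median log2 ratio of the listed genes set to 0, the members at 1.5-fold or more became 2 higher and 0 lower in SCC1. In FaDu they became 3 higher and 0 lower. That median was -1.05 in SCC1 and -1.01 in FaDu. It lies among the falls by construction, since the tables hold more falls than rises and leave out small differences. The setting thus raises every log2 ratio, which shrinks falls and enlarges rises wherever it is used below.

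**Figure D1:**
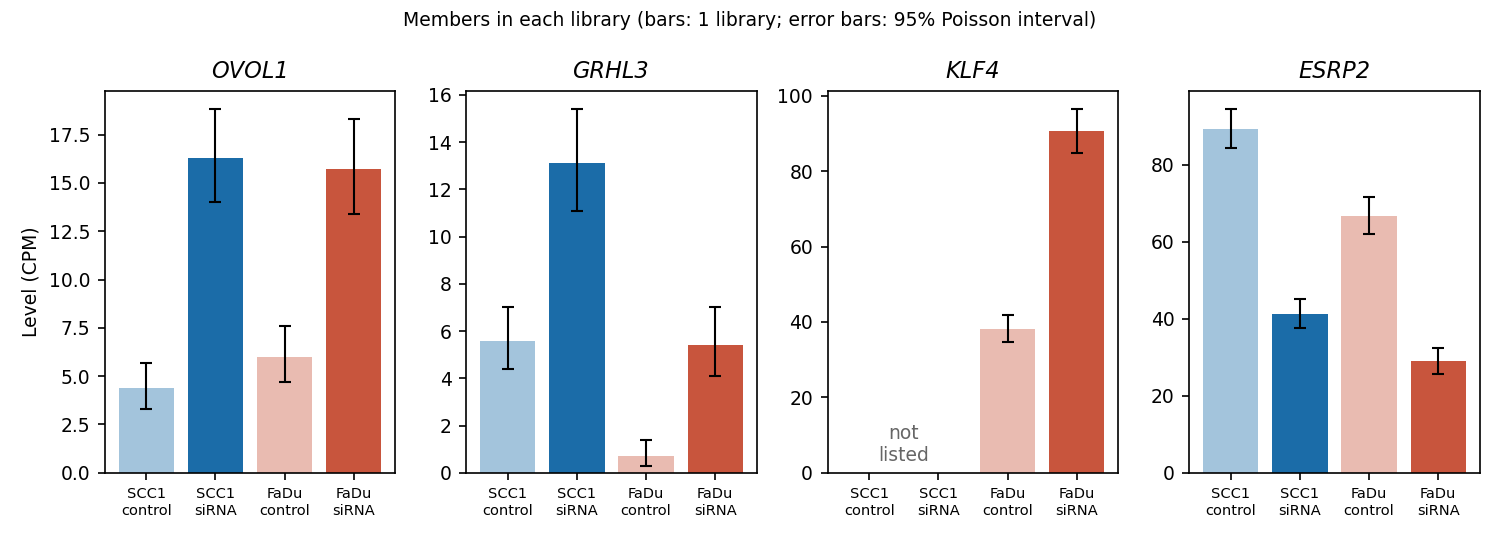
Level of each member in CPM (vertical axis, from 0, one scale per panel) in each of the 4 libraries. Bars are single libraries and error bars are 95% Poisson intervals of the read count. The siRNA bars stand above the control bars for OVOL1, GRHL3 and KLF4 and below them for ESRP2, and KLF4 is not listed in SCC1.

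OVOL1 had 4.38 CPM (58 reads) in the SCC1 control and 16.3 CPM (184 reads) with FOSL1 siRNA, and 6.01 CPM (69 reads) in the FaDu control and 15.7 CPM (163 reads) with FOSL1 siRNA. Both siRNA libraries were above both controls. It was 3.72-fold higher in SCC1 (2.76 to 5.09), the 181st largest of the 773 listed rises. In FaDu it was 2.62-fold higher (1.96 to 3.52), which placed it 367th of 656. The FDR of OVOL1 in the authors' deposited table was 0.0113 for SCC1 and 0.125 for FaDu. The ratio in FaDu was 0.702 times that in SCC1 (0.457 to 1.08), an interval that includes 1. The lines stood close together: the FaDu library with siRNA had 0.964 times the CPM of the SCC1 library with siRNA (0.776 to 1.20). The tables of the lines were normalised separately, which touches every level set across lines. In the GENCODE annotation, 27.1% of the exonic bases of OVOL1 are shared with an antisense gene, AP001266.1. The strand setting of the counts is not given in the sources used here, so reads of the pair cannot be told apart.

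GRHL3 had 5.59 CPM (74 reads) in the SCC1 control and 13.1 CPM (148 reads) with FOSL1 siRNA. In FaDu it had 0.697 CPM (8 reads) in the control and 5.40 CPM (56 reads) with FOSL1 siRNA. The FaDu control was the lowest of the 4 libraries and the FaDu siRNA library lay next to the SCC1 control. GRHL3 was 2.35-fold higher in SCC1 (1.76 to 3.15), the 458th largest of 773 rises, and 7.75-fold higher in FaDu (3.68 to 18.8), the 61st of 656. With a pseudocount of 1 CPM the log2 ratio in FaDu went from 2.95 to 1.92. In the authors' deposited table its FDR was 0.176 in SCC1 and 0.00133 in FaDu.

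Of the 3 members with values in both lines, this one differed most between them. The ratio of GRHL3 in FaDu was 3.30 times that in SCC1 (1.46 to 8.41), and this was the one member for which the interval left out 1. On the log2 scale that difference of 1.72 became 0.82 with a pseudocount of 1 CPM. The control library of SCC1 had 8.02 times the GRHL3 of the FaDu control (3.86 to 19.3). With FOSL1 siRNA the gap was 2.43-fold (1.77 to 3.36). GRHL3 in FaDu with siRNA was at 0.967 times its level in the SCC1 control (0.671 to 1.39). The wide intervals of the FaDu values follow from the 8 reads of the control.

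KLF4 had 38.2 CPM (438 reads) in the FaDu control and 90.6 CPM (939 reads) with FOSL1 siRNA, so the siRNA library was 2.37-fold higher (2.12 to 2.66). This was 463rd of the 656 listed rises in size, among the smaller ones, with the narrowest interval of the 3 rises in that line. The FDR of KLF4 in the authors' deposited table was 0.148. No gene is listed in SCC1 at under 1.88-fold, and up to 100 SCC1 genes past the authors' threshold were not analysed here.

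ESRP2 had 89.3 CPM (1182 reads) in the SCC1 control and 41.2 CPM (465 reads) with FOSL1 siRNA, and 66.7 CPM (765 reads) in the FaDu control and 28.9 CPM (300 reads) with FOSL1 siRNA. Both siRNA libraries were below both controls. The siRNA library was 2.17-fold lower than its control in SCC1 (1.94 to 2.42), and in FaDu it was 2.30-fold lower (2.01 to 2.64). The ratio in FaDu was 0.940 times that in SCC1 (0.789 to 1.12), an interval that includes 1. These were small falls among the listed ones, 863rd of 1130 in SCC1 and 588th of 889 in FaDu. For ESRP2 the authors' deposited table held an FDR of 0.196 for SCC1 and 0.175 for FaDu. Set against the median listed gene, the log2 ratio of ESRP2 was -0.062 in SCC1 and -0.19 in FaDu, so its fall was about that of the median listed gene. In the annotation ESRP2 shares 2.68% of its exonic bases with NFATC3 on the other strand, a gene that was listed in neither line.

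**Figure D2:**
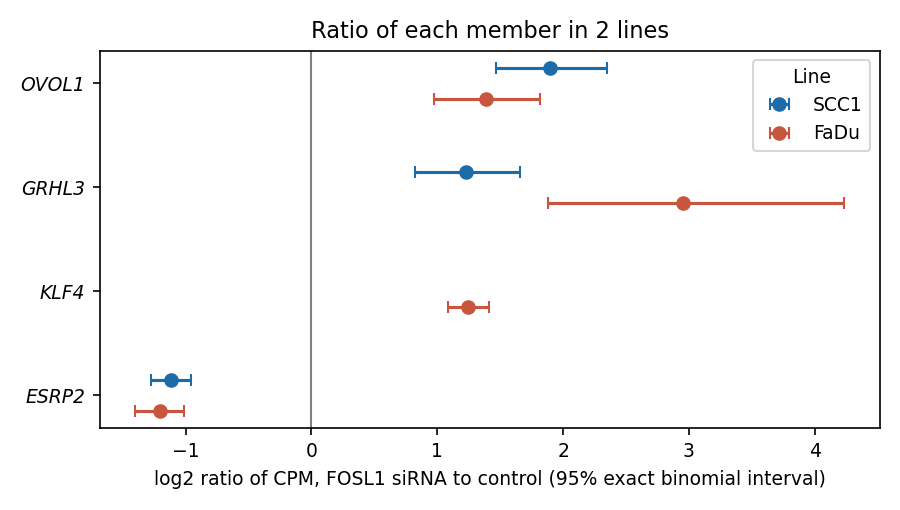
Log2 ratio of CPM, FOSL1 siRNA to control, for each member (rows) in SCC1 and FaDu. Points are single pairs of libraries and bars are 95% exact binomial intervals, which cover counting error only. OVOL1, GRHL3 and KLF4 lie right of 0 and ESRP2 left of 0, at -1.11 in SCC1 and -1.20 in FaDu, and the lines are farthest apart for GRHL3, at 1.23 and 2.95.

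Levels of different genes were compared as CPM per kilobase of exon, with exon lengths from GENCODE release 29. KLF4 has no value in SCC1, so its place there is unknown and the leading member cannot be compared between the lines. Among the other members in the SCC1 control, ESRP2 led with 16.0 CPM per kilobase, followed by GRHL3 with 1.42 and OVOL1 with 1.14. GRHL3 was at 1.25 times OVOL1 (0.872 to 1.79), an interval that includes 1. With FOSL1 siRNA, ESRP2 still led these members with 7.41 CPM per kilobase, then OVOL1 with 4.24 and GRHL3 with 3.33. The lead of ESRP2 over OVOL1 in SCC1 went from 14.1-fold (10.8 to 18.7) in the control to 1.75-fold (1.47 to 2.09) with siRNA.

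In FaDu, where KLF4 has values, the leading member changed between the libraries. The control had 12.0 CPM per kilobase for ESRP2, 10.4 for KLF4, 1.56 for OVOL1 and 0.177 for GRHL3, and ESRP2 was at 1.15 times KLF4 (1.02 to 1.29). With FOSL1 siRNA, KLF4 had 24.8 CPM per kilobase, ESRP2 5.202, OVOL1 4.09 and GRHL3 1.37. KLF4 was then at 4.76 times ESRP2 (4.17 to 5.44), and ESRP2 was at 1.27 times OVOL1 (1.05 to 1.55). GRHL3 was the lowest member in both FaDu libraries.

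In both lines 678 genes were listed, out of 13796 tested in each. Of the 4 members, 3 were among them, with the same direction in each line. Members were chosen with earlier results of these data known, so this count is partly built in. Of these 678 genes, 227 were higher in both lines, 428 were lower in both and 23 were opposite. Genes most like each member were taken from the 663 listed in both lines with reads in every library. Each gene was compared by the distance between log2 CPM profiles over the 4 libraries, each centred on its own mean. PEX3, a gene of peroxisome biogenesis, was nearest to ESRP2 at a distance of 0.058, being 2.16-fold lower in SCC1 and 2.18-fold lower in FaDu. SNAPIN, RAP1GDS1, TSTA3 and TAPBP came next, at distances up to 0.122. The closest profiles to OVOL1 were those of SPACA6P at 0.184, ZBTB34 at 0.211, PELI2 at 0.239, HIST1H2AC at 0.268 and LOC100288123 at 0.335. SPACA6P is a pseudogene and HIST1H2AC has close copies, which makes both values uncertain. For GRHL3 the nearest genes were farther off, from the fucosidase gene FUCA1 at 0.453, through ALDH3B2, TMEM221 and MAP2K6, to PPAP2A at 0.724. GRHL3 had 8 reads in the FaDu control. There ALDH3B2, TMEM221 and MAP2K6 had 0.436, 0.349 and 0.784 CPM, where 1 read is 0.0871 CPM. Counting error thus weighs heavily on these distances. FUCA1 was 2.24-fold higher in SCC1 and 5.41-fold higher in FaDu. OVOL1 ranked 154th of 659 genes in nearness to GRHL3, at a distance of 2.63.

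**Figure D3:**
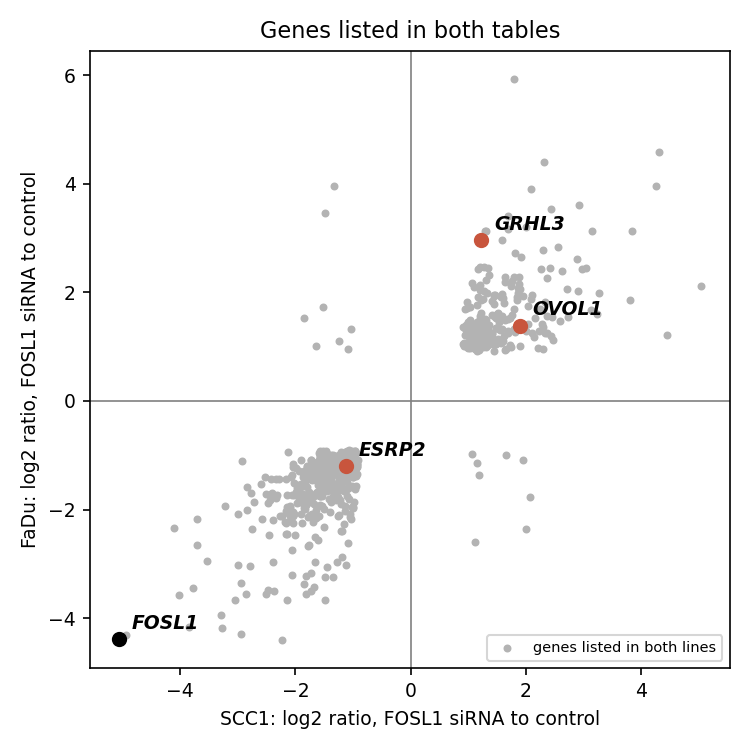
Log2 ratio of CPM, FOSL1 siRNA to control, in SCC1 (horizontal) against FaDu (vertical) for the 663 genes listed in both lines with reads in all 4 libraries. Grey points are genes, red points are members and the black point is the siRNA target FOSL1. OVOL1 and GRHL3 lie among the genes higher in both lines and ESRP2 among those lower in both, with ESRP2 near the inner edge that the authors' threshold sets.

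Promoter sequences from RefSeq, build GRCh38.p14, were matched for GRHL3 and KLF4; OVOL1 and ESRP2 were not matched. Each runs 5′ to 3′ on the gene's strand, from 250 bases before the start to 50 after it, and capitals mark the motif matches named below. They are shown because both genes were higher after depletion of an AP-1 subunit. GRHL3 has an upstream and a downstream start in the table. Its upstream promoter, chr1:24319107-24319406 on the plus strand, and the KLF4 promoter, chr9:107489720-107490019 on the minus strand, read as follows.
GRHL3: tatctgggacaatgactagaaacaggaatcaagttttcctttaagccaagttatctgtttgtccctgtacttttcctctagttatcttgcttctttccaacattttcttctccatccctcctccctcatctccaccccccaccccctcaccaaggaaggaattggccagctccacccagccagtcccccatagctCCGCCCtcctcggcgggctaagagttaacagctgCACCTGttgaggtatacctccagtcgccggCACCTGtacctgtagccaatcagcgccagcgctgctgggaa
KLF4: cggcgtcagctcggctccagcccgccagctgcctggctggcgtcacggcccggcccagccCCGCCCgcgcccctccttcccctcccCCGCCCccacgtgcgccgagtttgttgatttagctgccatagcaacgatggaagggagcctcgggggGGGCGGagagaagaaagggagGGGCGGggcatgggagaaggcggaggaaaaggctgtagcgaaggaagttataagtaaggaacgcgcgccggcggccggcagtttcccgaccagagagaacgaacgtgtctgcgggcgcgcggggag

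These windows were searched on both strands for the AP-1 site TGANTCA, the cyclic AMP response element TGACGTCA, the E-box CACCTG that SNAI and ZEB repressors bind, the Grainyhead site AACCGGTT and the GC box GGGCGG. No AP-1 site, cyclic AMP response element or Grainyhead site was matched in either printed window or in the downstream GRHL3 promoter. Of 35116 promoter windows of 300 bases, 7.71% held the AP-1 site, 1.85% the cyclic AMP response element and 0.134% the Grainyhead site. The upstream GRHL3 window held the E-box at 2 places, starting 21 bases before the start and at base 10 after it, counting the start base as 1. The E-box was in 20.6% of all windows. The GC box had 1 match in this window and 4 in the KLF4 window, and was in 45.0% of all windows. The downstream GRHL3 window, chr1:24322790-24323089, held none of the 5 motifs. A match describes the letters alone and shows no binding. The lack of a match in 300 bases does not show that binding is absent there or elsewhere at the gene.

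Other epithelial transcription factors were listed in one direction. Of a list of 24, which holds OVOL1, GRHL3 and KLF4, 6 were higher, 0 lower and 18 not listed in SCC1, and 7 were higher, 0 lower and 17 not listed in FaDu. The listed share was 25.0% in SCC1 and 29.2% in FaDu, against 13.8% and 11.2% of all tested genes in either direction. The median log2 ratio of the listed genes was 1.55 in SCC1 and 1.48 in FaDu, beside 1.35 and 1.46 over all genes listed as higher. Without the members, 4 of 21 were higher in SCC1 and 4 of 21 in FaDu, where 5.6% and 4.76% of all tested genes were listed as higher. The members and every list here were chosen with earlier results of these data known. An excess over the share of all tested genes is therefore partly built in and is no independent result. In the authors' deposited table an FDR under 0.05 was reached by 2 of the 24 in SCC1 and by 3 in FaDu, all of them higher.

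CEBPA, a leucine zipper factor of differentiating keratinocytes, joined OVOL1 and GRHL3 as higher in both lines. It went from 4.30 to 13.4 CPM in SCC1, 3.11-fold higher (2.28 to 4.30), and from 2.0 to 5.60 CPM in FaDu, 2.79-fold higher (1.70 to 4.74). KLF5, a Krüppel-like factor of proliferating epithelium, went from 88.2 to 167 CPM in SCC1, 1.90-fold higher (1.76 to 2.04). In FaDu, ZNF750, a zinc finger factor of terminal epidermal differentiation, went from 1.22 to 6.75 CPM, 5.54-fold higher (3.09 to 10.6). ELF3, an epithelium-specific ETS factor, went from 95.8 to 292 CPM in FaDu, 3.04-fold higher (2.84 to 3.27). By size, ZNF750 was 99th and ELF3 278th of the 656 listed rises in FaDu, where CEBPA was 322nd. Among the 773 listed rises in SCC1, CEBPA was 265th and KLF5 760th, so KLF5 was near the smallest listed. The remaining listed genes, named after their values were seen, were FOXN1 and PRDM1 in SCC1, each under 4 CPM in both libraries, and CEBPB in FaDu. The OVOL1 and GRHL3 paralogs OVOL2, OVOL3, GRHL1 and GRHL2 were listed in neither line, nor was TP63, the regulator of basal keratinocytes.

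**Figure D4:**
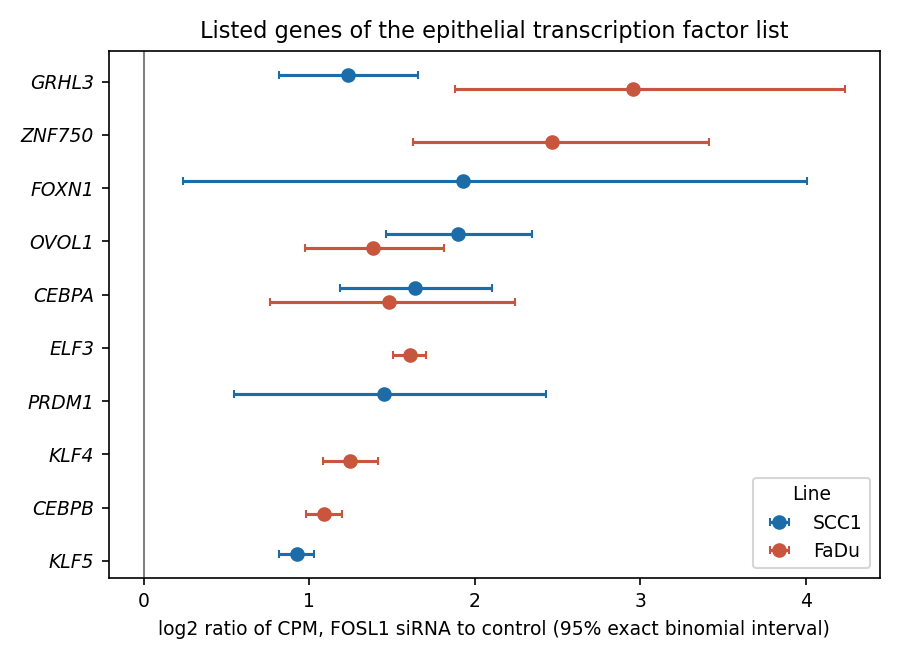
Log2 ratio of CPM, FOSL1 siRNA to control, of the 10 genes of the epithelial transcription factor list that were listed in SCC1 or FaDu, with 95% exact binomial intervals. All plotted points lie right of 0, and OVOL1, GRHL3 and CEBPA have a point in each line.

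The Krüppel-like family of KLF4 had listed genes in each direction. Of 17 members, 2 were higher and 1 lower in SCC1, and 1 was higher and 2 were lower in FaDu, so 17.6% were listed in each line, against 13.8% and 11.2% of all tested genes. Of these calls, KLF6 in FaDu had an FDR under 0.05 in the authors' deposited table. With the median listed gene set to 0, 0 were lower in SCC1 and 1 in FaDu at 1.5-fold or more. KLF13 went from 65.2 to 27.2 CPM in SCC1, 2.39-fold lower (2.10 to 2.74). In FaDu, where KLF4 was higher, KLF6, an early-response factor, went from 48.2 to 14.8 CPM, 3.26-fold lower (2.72 to 3.93). KLF7 went from 42.4 to 15.1 CPM there, 2.80-fold lower (2.34 to 3.38). The other higher gene in SCC1 beside KLF5 was KLF15, named after its values were seen, at 0.604 and 2.04 CPM. No member of the family was listed in both lines.

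ESRP2 was the single listed gene among 13 splicing regulators in each line. This listed share of 7.69% was below the 13.8% of all tested genes in SCC1 and 11.2% in FaDu. Its paralog ESRP1, and RBFOX2, QKI and RBM47, were listed in neither line. Of 11 genes whose transcripts ESRP proteins are known to splice, CD44 was listed in both lines and lower, from 477 to 190 CPM in SCC1 and from 366 to 159 CPM in FaDu. Its FDR in the authors' deposited table was 0.0862 for SCC1 and 0.162 for FaDu, and with the median listed gene set to 0 its log2 ratio was -0.27 and -0.19, under 1.5-fold in both lines. The other 10, FGFR2 and CTNND1 among them, were not listed, so the listed share was 9.09% in each line, also below that of all tested genes. These are sums over all transcripts of a gene, so exon use by ESRP2 was not measured.

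Genes downstream of these regulators, or opposed to them, were counted on lists of their own. Of 23 junction and epithelial surface genes, 4 were higher and 0 lower in SCC1, and 2 were higher and 0 lower in FaDu. The listed share was 17.4% in SCC1 and 8.70% in FaDu, against 13.8% and 11.2% of all tested genes. At 2-fold, or at an FDR under 0.05 in the authors' deposited table, 2 were higher in each line, TJP3 and CLDN4. TJP3, a tight junction scaffold, went from 3.02 to 11.4 CPM in SCC1 and from 1.39 to 8.78 CPM in FaDu. CLDN4, a claudin gene that the GRHL3 paralog GRHL2 activates, went from 34.5 to 105 CPM in SCC1 and from 89.3 to 333 CPM in FaDu. MARVELD3, a tight junction membrane protein gene, was listed beside CDH1 in SCC1, 1.89-fold higher (1.70 to 2.10).

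The squamous differentiation list differed in its counts between the lines. Of its 26 genes, 0 were listed in SCC1, while 4 were higher and 0 lower in FaDu, a listed share of 15.4% against 11.2% of all tested genes. TGM1, a transglutaminase gene that GRHL3 activates in epidermis, went from 1.22 to 8.49 CPM in FaDu. KRT13 went from 0.784 to 9.45 CPM, KRT4 from 1.57 to 6.37 CPM and the elastase inhibitor gene PI3 from 0.523 to 5.21 CPM in the same line. All 4 had under 20 reads in the FaDu control, as GRHL3 did. A gene that is not listed in SCC1 has no value there, so the difference between the lines was not tested.

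Of 12 regulators of epithelial-mesenchymal transition, 2 were higher and 1 lower in SCC1, and 1 was higher and 1 lower in FaDu. The listed share was 25.0% in SCC1 and 16.7% in FaDu, against 13.8% and 11.2% of all tested genes. SNAI1, a repressor of epithelial genes, was higher beside OVOL1 and GRHL3 in both lines. It went from 1.66 to 15.6 CPM in SCC1 and from 1.57 to 4.73 CPM in FaDu. The FaDu values stand on 18 and 49 reads and do not reach the level minimum of 5 CPM. SNAI3, of the same family, went from 3.32 to 8.42 CPM in SCC1, 2.53-fold higher (1.76 to 3.71). SNAI2 was lower in both, by 2.07-fold in SCC1 (1.80 to 2.38), where its log2 ratio turned to 0.0022 with the median listed gene set to 0, and by 4.26-fold in FaDu (3.48 to 5.25). ZEB1, ZEB2, TWIST1 and TWIST2 were listed in neither line. Of 11 mesenchymal genes, 3 were lower and 1 higher in SCC1, and 6 were lower and 1 higher in FaDu, where the sign of FN1 turned to 0.09 on the log2 scale with that setting. The listed share was 36.4% in SCC1 and 63.6% in FaDu, against 13.8% and 11.2% of all tested genes. As for every list here, an excess over that share is partly built in. Setting the median listed gene to 0 left 2 lower in SCC1 and 3 lower in FaDu at 1.5-fold or more. AXL and THBS1 were lower and S100A4 was higher in both lines, VIM was lower in SCC1, and CDH2 and CDH11 were lower in FaDu. FN1 and MMP2, the latter from 4.88 to 2.22 CPM in FaDu, and THBS1 in FaDu were named after their values were seen.

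**Figure D5:**
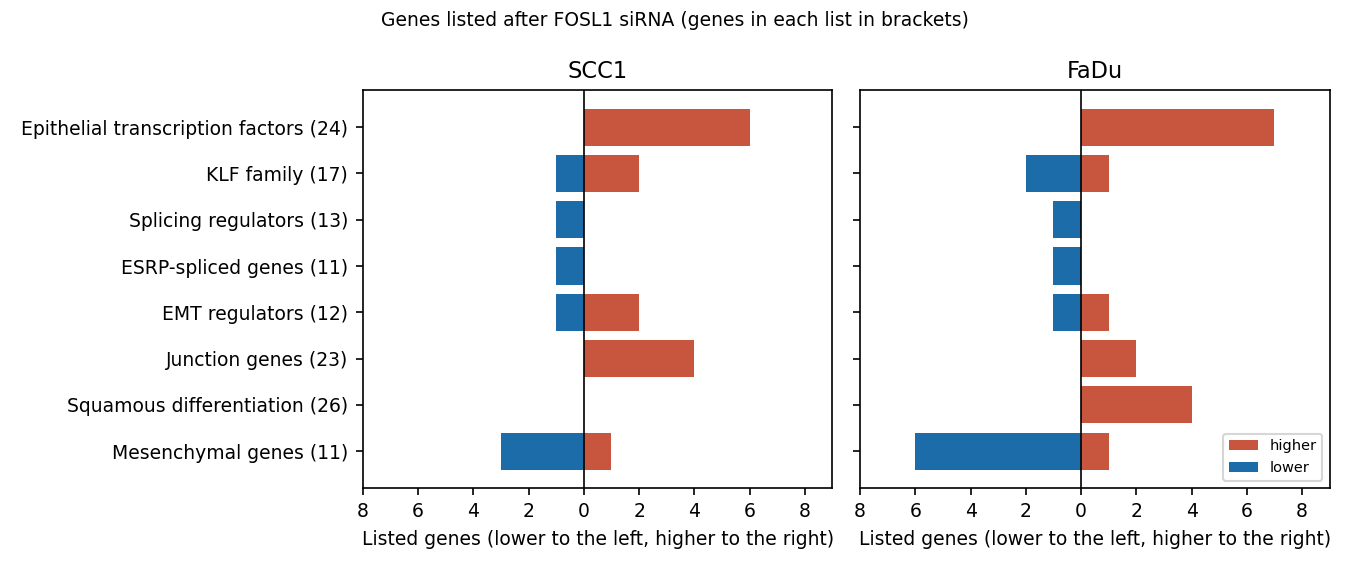
Number of listed genes of each list that were higher (right, red) or lower (left, blue) after FOSL1 siRNA in SCC1 and FaDu, with the genes in each list in brackets. Epithelial transcription factors have 6 and 7 higher and 0 lower. Mesenchymal genes have 3 and 6 lower and 1 higher in each line. With the median listed gene set to 0, which raises every log2 ratio by construction, SNAI2 in SCC1 and FN1 in FaDu change sign.

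Markers of other cell types were counted as well. In FaDu 22.2% of fibroblast and 28.6% of leukocyte markers were listed, against 11.2% of all tested genes. In SCC1 14.3% of leukocyte markers were listed, against 13.8%. None of 5 endothelial markers was listed in either line, and none of 9 fibroblast markers in SCC1. In FaDu 2 fibroblast markers were lower, COL3A1 from 7.84 to 2.22 CPM and POSTN from 6.88 to 3.28 CPM. POSTN had an FDR of 0.417 in the authors' deposited table, and its log2 ratio was -0.055 with the median listed gene set to 0, so under either setting 1 of the 2 was left. Of 7 leukocyte markers, CD68 was lower in both lines, from 17.3 to 3.99 CPM in SCC1 and from 35.7 to 8.39 CPM in FaDu, and CD14 was higher in FaDu, from 2.61 to 6.66 CPM. The summed level of listed leukocyte markers was 17.3 CPM in the SCC1 control and 3.99 CPM with siRNA, and 38.3 and 15.05 CPM in FaDu. The part of these genes in the members' values was not tested.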

How the data were processed

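RNA-seq of total RNA was compared between FOSL1 siRNA and control siRNA in SCC1 and FaDu, 1 library per group. TopHat, Cufflinks and build hg18 are named, with no roles, per the submitters' processing notes. The sources used here do not give the counter, normalization or strand setting. The authors deposited CPM per library, a score that is a signed linear fold, and a p-value with its FDR, per the file headers, for genes that passed their comparison. Dividing the deposited CPM by the value of 1 read in its library gave whole numbers, to within 0.01, for 100% of values, and these were taken as reads. The number of genes tested, 13796 per line, was worked out by dividing the authors' FDR by their p-value.

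Ratios are of CPM without a pseudocount, and those of at least 1.5-fold were counted, which all listed genes met. Intervals are exact binomial for a ratio, exact conditional on the table of reads for a ratio of ratios, and Poisson for a level; no comparison of 2 libraries here tests the condition. When edgeR's likelihood ratio test (edgeR 4.0.16, R 4.3.3) was run on the recovered reads at an assumed dispersion of 0.05, it put 1903 of 1903 SCC1 genes and 1545 of 1545 FaDu genes within 1% of the authors' deposited p-value. The computation of reads and intervals was tested on simulated data. The text names the members, FOSL1, up to 4 genes per list and line with the largest ratios among genes reaching 5 CPM, and the 5 genes nearest to each member; a few others are marked as named after their values were seen. Members and lists were chosen with earlier results of these data known, and some results are not reported here. Alternatives were other folds, p-values, FDR, pseudocounts, a level minimum, older symbols, scaling to the median listed gene and other dispersions. Software was Python 3.11.15 with SciPy 1.17.1, pandas 2.3.3, matplotlib 3.10.9 and numpy 2.4.6.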

Additional observations from a re-analysis of the deposited data

How the results depend on the processing

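Pseudocounts of 1 and 0.1 CPM, a level minimum of 5 CPM and a fold of 2 cannot turn a direction, so they do not test it. Every listed member met the level minimum and the fold of 2. The pseudocount of 1 CPM brought the log2 ratio of GRHL3 in FaDu from 2.95 to 1.92. Setting the median log2 ratio of the listed genes (-1.05 in SCC1 and -1.01 in FaDu) to 0 gave log2 ratios of 2.95 for OVOL1, 2.28 for GRHL3 and -0.062 for ESRP2 in SCC1, and 2.40 for OVOL1, 2.26 for KLF4 and -0.19 for ESRP2 in FaDu. The tables hold more falls than rises and leave out small differences, which puts this median among the falls by construction. It left 2 members higher and 0 lower in SCC1, and 0 lower in FaDu. At 3-fold, 1 member was higher and 0 lower in each line. An authors' p-value under 0.01 left 1 higher and 0 lower in SCC1 and 0 lower in FaDu, and an authors' FDR under 0.05 left 1 higher and 0 lower in each line. The edgeR likelihood ratio test on the 2 libraries of a line called 913 of the listed SCC1 genes and 781 of the FaDu genes at an unadjusted p under 0.05 with a dispersion of 0.1, and 334 and 327 with 0.2. Among the members it called OVOL1 in SCC1 at both dispersions (1 higher, 0 lower), OVOL1 and GRHL3 in FaDu at 0.1 (2 higher, 0 lower) and GRHL3 in FaDu at 0.2 (1 higher, 0 lower). Such a test compares those libraries, not the conditions, and rests on the assumed dispersion. The same limit applies to the authors' p-values and FDRs, since a fixed dispersion of 0.05 matched their p-values. Over the 8 lists other than markers, 14 genes were higher and 7 lower in SCC1, and 15 and 11 in FaDu. An authors' FDR under 0.05 left 5 higher and 3 lower in SCC1, and 10 higher and 5 lower in FaDu, and scaling to the median listed gene left 2 lower in SCC1 and 5 lower in FaDu. No paired analysis was possible because each group had 1 library. Depth limits GRHL3 in FaDu most, with 8 reads in the control.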

Other observations

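OVOL1 and the siRNA target FOSL1 lie on chromosome 11, with 7 protein-coding genes between them in GENCODE release 29 (CFL1, SNX32, MUS81, EFEMP2, CTSW, FIBP and CCDC85B). Of these 7, FIBP was listed in SCC1, 2.18-fold lower, from 77.2 to 35.4 CPM, and 0 were listed in FaDu. OVOL1 was higher in the libraries in which FOSL1 was lower. Of all tested genes, 13.8% were listed in SCC1 and 11.2% in FaDu, so the counts among these 7 do not set the interval apart.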
